A study of Homo sapiens with 6 samples.

Results

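The mRNAs of the cytosolic ribosomal proteins, the protein part of the ribosome, were followed in the glioblastoma (GBM) cell line KNS42 after depletion of the RNA-binding protein MSI1. The members were the protein-coding genes whose symbol is RPL or RPS with a number, together with RPSA and RPLP0 to RPLP2. The number could be followed by the letter A, X, L or Y and then by further digits. The RPS6K kinases and the 2 genes on chromosome Y (RPS4Y1 and RPS4Y2) were left out. This gave 84 of the 58174 genes of the table, 52 of the large and 32 of the small subunit, and 7 of them are paralogs whose symbol carries an added L (RPL3L, RPL7L1, RPL10L, RPL22L1, RPL26L1, RPL39L and RPS27L). KNS42 is an established line derived from a pediatric GBM, so all libraries come from 1 tumor. Cells were transfected with an siRNA pool directed against MSI1 (siMSI1, n = 3) or with a control siRNA (siC, n = 3) and harvested 72 h later, and polyA RNA was sequenced. Nothing in the labels says that the replicates are separate cultures, so the p-values measure the spread between these libraries, which may be technical. The labels name no batch. The libraries held 15018417, 18024080 and 14448513 reads on genes in siC and 14379126, 13087025 and 14700593 in siMSI1.

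MSI1 mRNA itself stood at 63.7, 61.9 and 66.9 FPKM (reads divided by gene length and library size) in siC, against 12.1, 12.3 and 11.2 FPKM in siMSI1. All siMSI1 libraries were therefore depleted. The glial and progenitor markers VIM, SOX2, NES and CD44 were present at mean siC levels of 1035, 300.6, 69.2 and 84.8 FPKM, against 865, 257, 61.8 and 61.9 FPKM in siMSI1. For each of these 4 the siMSI1 values lay entirely below those of siC. CD44 fell by 0.46 on the log2 scale (limma adjusted p = 0.0030, called in 12 of 18 alternative settings), and VIM, SOX2 and NES did not pass the threshold of 0.01 (adjusted p = 0.038, 0.053 and 0.094). GFAP, the astrocyte filament protein, rose from 1.63 to 4.61 FPKM (limma adjusted p = 0.00090). These markers thus differed between the same libraries as the ribosomal proteins described here, and their part in those results was not tested. Markers of blood (PTPRC), endothelium (PECAM1), epithelium (EPCAM) and liver (ALB) had at most 3, 8, 6 and 3 reads in any library.

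Each ribosome is built from a small subunit, which decodes the mRNA, and a large subunit, which joins the amino acids. Cells make its proteins in near-equal numbers, and a protein left without its ribosomal RNA is usually degraded. In vertebrates most of these mRNAs begin with a C followed by a run of pyrimidines, the 5′ terminal oligopyrimidine (TOP) motif. Through it the kinase mTOR and the RNA-binding protein LARP1 control how well they are translated and how stable they are, and MYC family factors drive transcription of many ribosomal protein and assembly factor genes. Growing tumor cells spend a large part of their RNA and protein synthesis on ribosomes.

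Ribosomal protein mRNAs were among the most abundant in KNS42. In siC, 54 of the 84 members had a mean of at least 100 FPKM, 18 lay between 20 and 100 FPKM, and 9 further members that could be tested were under 20 FPKM. The 3 members that were not tested were the tissue-restricted paralogs RPL3L and RPL39L, with at most 2 reads in any library, and RPL10L, with 0 reads in all 6. A count of 0 allows up to 3 reads per library, a limit that covers counting error only. The levels understate the canonical mRNAs, because the gene length in the table was 2.84 times the length of the canonical mRNA for the median member. This ratio ran from 1.05 to 33.0 among the members, so that the order of FPKM between genes depends on the lengths in the table, while differences between the groups do not. They were precise within siC, where the median coefficient of variation over the 81 tested members was 4.46%, and less so in siMSI1, where it was 10.3%.

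Upon MSI1 depletion most ribosomal protein mRNAs were slightly higher, and few of the single differences passed the test. The median log2 fold change of siMSI1 over siC was 0.20 (1.15-fold), with quartiles of 0.09 and 0.30 and a range of −0.91 to 0.53. It was above 0 for 67 of the 81 tested members (82.7%), as against 50.0% of all 15069 tested genes. The other 311 protein-coding genes with a mean of at least 100 FPKM had a median of 0.03, and all tested genes a median of 0.00. limma on log2(FPKM + 0.1), adjusted by Benjamini-Hochberg over the 15069 genes, called 4 members higher (4.94%) and 0 lower at an adjusted p of 0.01. Of all tested genes it called 5.15% higher, 5.83% lower and 11.0% in either direction, so that the share of members called was no larger than the background. The 4 members called higher were RPL13A, RPS28, RPL30 and RPL10. At an unadjusted p of 0.05, 42 members were higher and 3 lower (background 18.96% and 19.30%). At an adjusted p of 0.05, 22 members were higher (27.2%) and 3 lower, where the whole table gave 12.2% and 12.9%. The 3 siMSI1 values lay entirely above the 3 siC values for 42 members (51.9%, against 21.4% of all tested genes) and entirely below for 4 (background 21.5%), and 35 members overlapped. The 4 were RPL29, RPL7L1, RPS15 and RPL36A. Because the assay is relative to all reads on genes of a bulk culture, a different make-up of cells and a different amount of RNA per cell cannot be told apart.

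**Figure D1:**
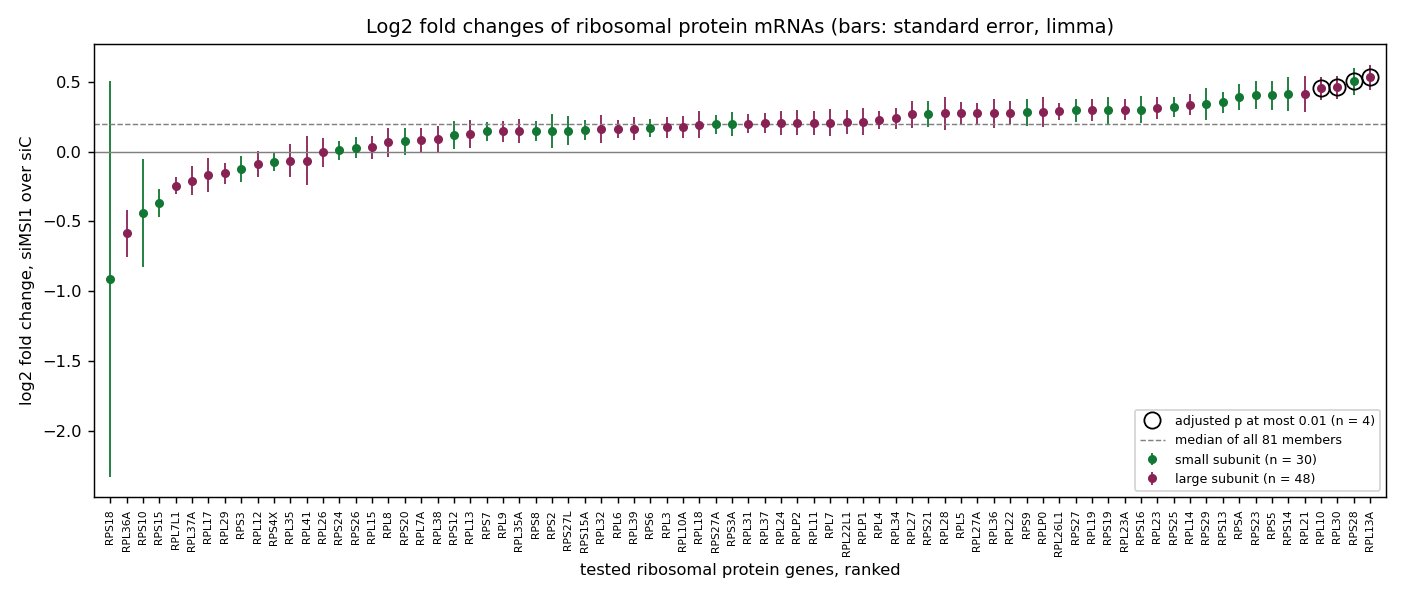
The log2 fold change of siMSI1 over siC on the vertical axis is given for 78 of the 81 tested ribosomal protein genes, ranked, with bars for the standard error of limma and circles around the 4 genes at an adjusted p of at most 0.01. The points run from −0.91 (RPS18, with the longest bar) to 0.53 (RPL13A), small and large subunit genes are mixed, and 64 of the 78 lie above the line at 0.

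The small and the large subunit had similar medians. Of the 32 small subunit members, 27 were above 0 with a median of 0.18 and 1 was called (3.1%). Of the 49 tested large subunit members, 40 were above 0 with a median of 0.20 and 3 were called (6.1%). Of the 7 L paralogs 4 were tested, 3 of them above 0 and none called. Among all tested genes 50.0% were above 0, 5.15% were called higher and 5.83% lower, so that these counts of calls are near the background.

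The difference was not the same in each siMSI1 library. The median over the members of log2(FPKM + 0.1), taken from each gene's mean over all 6 libraries, was −0.13, −0.11 and −0.06 in siC replicates 1 to 3 and −0.03, 0.15 and 0.18 in siMSI1 replicates 1 to 3. siMSI1 replicate 1 thus stood near siC replicate 3 and apart from the other two siMSI1 libraries. It was the lowest siMSI1 library for 75 of the 81 tested members, and siC replicate 3 was the highest siC library for 60. Without siMSI1 replicate 1 the median log2 fold change was 0.26 and 9 members were called higher and 0 lower (background 2.55% and 2.87%). Leaving out siC replicate 1, siC replicate 2, siC replicate 3 or siMSI1 replicate 2 left 0 members past the threshold in limma, where 1.65%, 2.63%, 2.54% and 2.57% of all tested genes were called higher. In these fits 25, 27, 37 and 28 members were higher at an unadjusted p of 0.05, as against 14.95%, 16.60%, 17.08% and 16.70% of all tested genes. Lower were 3, 3, 3 and 4 members, as against 15.64%, 16.17%, 17.16% and 17.81% of all tested genes. Leaving out siMSI1 replicate 3 left 1 member called, with 4.47% of all tested genes called higher. With all libraries, limma's voom on the reads recovered from the FPKM called 18 higher and 1 lower (background 8.81% and 10.1%), and limma after quantile normalization 11 higher and 1 lower (background 5.59% and 6.14%).

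The ribosomal protein genes took 4.29%, 4.28% and 4.51% of the reads on genes in siC, which is 4.36% ± 0.130 (SD, n = 3). In siMSI1 they took 4.65%, 5.17% and 5.24%, which is 5.02% ± 0.322 (SD, n = 3). All siMSI1 libraries were above all siC libraries, and the ratio of the means was 1.15. The two-sided exact permutation test over libraries gave p = 0.1, the smallest value that 3 against 3 allows. Their summed FPKM was 15921, 15804 and 16621 in siC and 16726, 19181 and 19499 in siMSI1, again without overlap (ratio 1.15, exact permutation p = 0.1).

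**Figure D2:**
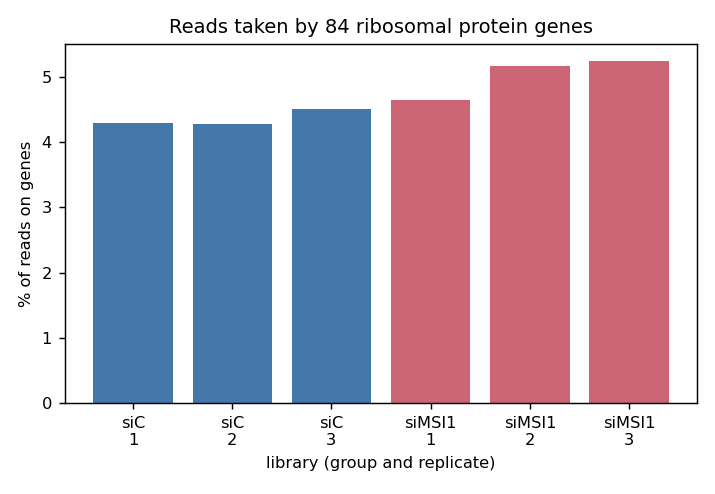
Bars give the percentage of reads on genes that fell on the 84 ribosomal protein genes in each library, with 3 siC libraries on the left and 3 siMSI1 libraries on the right. The siC bars lie between 4.28% and 4.51% and the siMSI1 bars between 4.65% and 5.24%.

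Length and base composition of other mRNAs are set beside this. Among other protein-coding genes with short mRNAs (at most 2454 bases), the library medians were −0.03, −0.04 and 0.02 in siC and −0.03, 0.03 and 0.06 in siMSI1, a smaller difference of 0.03 in log2 fold change. Among other protein-coding genes with an mRNA GC content of at least 53.7% the medians were 0.01, −0.07 and 0.07 in siC and −0.06, −0.06 and 0.13 in siMSI1, and the median log2 fold change was −0.00. The members had a median GC content of 47.4%, close to the 47.9% of other coding genes, and a median mRNA of 869 bases against 3389 bases. The part of length and GC content in the result was not tested. The 12 members on chromosome 19, a group formed after their values were seen, had a GC content of 57.0% and a median log2 fold change of 0.30. The members elsewhere stood at 46.6% GC and 0.17, and 813 other coding genes of chromosome 19 at 0.03.

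RPL13A, a large subunit protein that also acts as a translational silencer when released from the ribosome, had the largest difference among the called members. It stood at 593, 563 and 640 FPKM in siC, against 782, 865 and 953 FPKM in siMSI1. All siMSI1 libraries were higher, by a log2 fold change of 0.53 (standard error 0.091, limma adjusted p = 0.0055), and at least 21054 reads lay behind each value. The gene is on chromosome 19 of GRCh38 from 49487510 to 49493057 and hosts 4 small nucleolar RNA genes on its strand.

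RPS28, which sits at the mRNA exit of the small subunit, was at 117, 115 and 135 FPKM in siC, against 155, 179 and 187 FPKM in siMSI1 (log2 fold change 0.50, adjusted p = 0.0085 from limma). RPL30, a small protein at the interface of the subunits, was at 66.3, 67.3 and 69.3 FPKM in siC, against 82.8, 97.7 and 99.3 FPKM in siMSI1 (log2 fold change 0.46, limma adjusted p = 0.0067). RPL10, the late-joining protein that shapes the site where tRNAs meet the catalytic center, was at 131, 134 and 142 FPKM in siC, against 168, 191 and 199 FPKM in siMSI1 (log2 fold change 0.45, limma adjusted p = 0.0065). In each of these genes the groups did not overlap and siMSI1 replicate 1 was the lowest siMSI1 library. None of the 4 calls held in all of 18 alternative settings, since RPL13A was called in 12, RPL30 and RPL10 in 11 and RPS28 in 10.

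**Figure D3:**
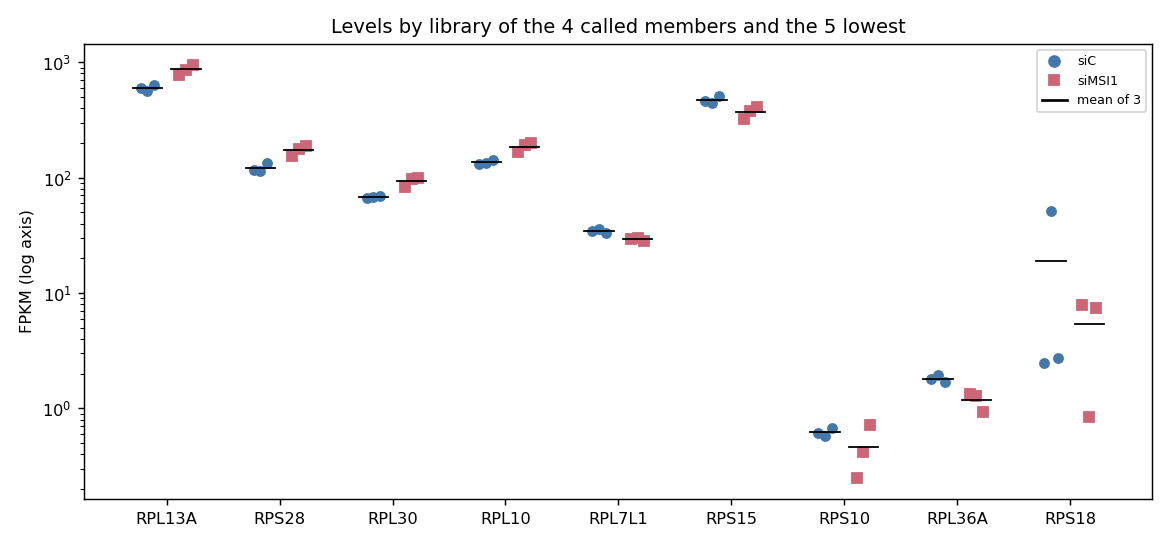
FPKM on a log axis is shown in each library for the 4 called members and the 5 with the lowest log2 fold change, with circles for siC, squares for siMSI1 and lines for the mean of 3. RPL13A, RPS28, RPL30 and RPL10 have all squares above all circles, RPL7L1, RPS15 and RPL36A have all squares below, and RPS10 and RPS18 overlap.

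At the lower end no member passed the threshold. RPS15, a protein of the head of the small subunit, stood at 463, 446 and 508 FPKM in siC, against 322, 376 and 405 FPKM in siMSI1. The groups did not overlap, and the log2 fold change was −0.37 (standard error 0.099, limma adjusted p = 0.032) with at least 10131 reads per library. Among members of at least 100 FPKM, RPS15 and RPL29 were the only ones whose 3 siMSI1 values lay below all siC values. In voom on the recovered reads its adjusted p was 0.0036.

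RPL36A was at 1.78, 1.94 and 1.68 FPKM in siC, against 1.33, 1.27 and 0.931 FPKM in siMSI1, from 53 to 139 reads (log2 fold change −0.59, limma adjusted p = 0.041). RPS10 had 15, 17 and 16 reads in siC and 6, 9 and 17 in siMSI1, which is too few to place its log2 fold change of −0.44 (standard error 0.386). RPL17 had 189 to 332 reads and a log2 fold change of −0.17 (limma adjusted p = 0.35). These 3 are ordinary, essential ribosomal proteins and had the lowest siC FPKM of all tested members. Each of them overlaps an annotated readthrough gene on its own strand (RPS10-NUDT3, RPL17-C18orf32 and RPL36A-HNRNPH2), whose own rows held at most 1 read. A read that fits 2 genes may be dropped in counting. What part this has in the low levels was not tested.

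RPS18, a small subunit protein encoded in the major histocompatibility region of chromosome 6 (GRCh38, 33272075 to 33276511), had the most erratic values. Its reads were 70, 1760 and 75 in siC and 221, 21 and 201 in siMSI1, and the highest FPKM was 60.7 times the lowest. Its log2 fold change of −0.91 had a standard error of 1.42. Of its mRNA, cut into windows of 100 bases, 26.2% recurred elsewhere on the primary chromosomes of hg38 and 7.11% on 5 alternative or unplaced sequences. The highest value was at least 2 times the lowest in RPS10 and RPL36A too.

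The member with the highest FPKM was RPL41, the smallest ribosomal protein, at 1120 ± 109 FPKM in siC (SD, n = 3) and 1090 ± 264 FPKM in siMSI1 (SD, n = 3). Also among the highest FPKM in siC were RPS12 at 648 ± 14.6, RPL13A at 599 ± 38.8 and RPS27 at 569 ± 2.99 FPKM (SD, n = 3). Over the siC libraries RPL41 and RPS12 did not overlap, while RPL13A (563 to 640 FPKM) overlapped both RPS12 and RPS27. RPS12 (log2 fold change 0.12, limma adjusted p = 0.42) and RPL41 (−0.07, adjusted p = 0.82) did not pass the test, and RPS27 (0.30, limma adjusted p = 0.037) did so only at 0.05.

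The members of the stalk, the 5S particle and other set roles named next had small differences, none past the threshold. RPLP0, RPLP1 and RPLP2 form the stalk that recruits elongation factors, and had log2 fold changes of 0.28, 0.21 and 0.21. RPLP0 was at 482, 471 and 531 FPKM in siC, against 539, 577 and 702 FPKM in siMSI1, without overlap (limma adjusted p = 0.089). RPL5 and RPL11, which with 5S RNA bind and inhibit MDM2 when ribosome assembly fails, had log2 fold changes of 0.27 (limma adjusted p = 0.045) and 0.21 (0.11). RPL5 was at 124, 133 and 127 FPKM in siC, against 146, 173 and 147 FPKM in siMSI1.

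RPS6, the substrate of the S6 kinases downstream of mTOR, was at 265, 278 and 275 FPKM in siC, against 293, 320 and 307 FPKM in siMSI1. This is a small but non-overlapping difference (log2 fold change 0.17, limma adjusted p = 0.094). RPS19, the gene most often mutated in Diamond-Blackfan anemia, was at 161, 156 and 180 FPKM against 183, 200.3 and 228 FPKM (log2 fold change 0.30, limma adjusted p = 0.061). RPSA, which also occurs as the laminin receptor at the cell surface, was at 179, 174 and 191 FPKM in siC, against 216, 231 and 269 FPKM in siMSI1 (log2 fold change 0.39, limma adjusted p = 0.019). RPS27A, made as a fusion with ubiquitin, had a log2 fold change of 0.19 (limma adjusted p = 0.072).

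For 67 of the 84 members RefSeq (GRCh38.p14) gave a promoter, from which 30 bases around the annotated start were read (15 before the start and 15 from it on). The start was a C in 70.1% of the members, as against 15.0% of all 27305 promoters and 11.8% of those of tested coding genes. A run of at least 5 C or T that held the start on the strand of the gene was found in 67.2% of the members, 9.80% of all promoters and 8.86% of those of tested coding genes. The letters CTTCCG on either strand, whose first 5 letters can be part of such a run, occurred between 250 bases before and 50 bases after the start in 61.2% of the members, 19.9% of all promoters and 34.5% of those of tested coding genes. The starts of the called members with a window, of RPL41 and of the 5 members with the lowest log2 fold change are shown to compare their pyrimidine runs, with the run of C or T that holds the start in capitals and all other bases in lower case:
RPL13A: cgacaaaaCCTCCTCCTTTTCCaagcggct
RPS28: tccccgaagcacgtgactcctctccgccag
RPL10: tttttccactctcagaaatatacgtctgtc
RPL41: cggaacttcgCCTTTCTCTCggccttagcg
RPS15: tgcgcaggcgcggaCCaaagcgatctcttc
RPL36A: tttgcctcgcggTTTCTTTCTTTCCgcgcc
RPS18: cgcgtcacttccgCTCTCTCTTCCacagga
RPS10: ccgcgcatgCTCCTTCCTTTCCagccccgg
RPL7L1: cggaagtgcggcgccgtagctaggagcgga

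These lie at chr19:49487593-49487622, chr19:8321481-8321510, chrX:154398050-154398079, chr12:56116618-56116647, chr19:1438381-1438410, chrX:101390996-101391025, chr6:33272060-33272089, chr6:34426055-34426084 and chr6:42879601-42879630, with RPS10 on the minus strand and the others on the plus strand. RPL13A, RPL41, RPL36A, RPS18 and RPS10 carried runs of 14, 10, 13, 11 and 13 pyrimidines across the start. RPS28 and RPL10 started with an A, RPL7L1 started with a G, and RPS15 had a run of 2. Such windows depend on the start that RefSeq chose, and in RPS28 a run of pyrimidines follows within a few bases. Counting a C within 5 bases of the start followed by at least 4 pyrimidines, 76.1% of the members, 21.1% of all promoters and 22.8% of those of tested coding genes had one. The 51 tested members with this feature had a median log2 fold change of 0.21, and the 15 without it a median of 0.15. Of the 14 members below 0 in log2 fold change, 71.4% had it. By the stricter counts, 78.6% of these 14 started with a C and 71.4% had a run of at least 5. Both shares were above those of all members (70.1% and 67.2%). Of the 3 called members with a window, 1 started with a C and 1 had such a run. The part of the start in the differences was not tested.

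The L paralogs are encoded by separate genes, and 4 of their 7 pairs were expressed enough to be compared. RPL7L1 takes part in assembling the large subunit, while RPL7 stays in it. RPL7L1 was at 34.3, 35.95 and 33.4 FPKM in siC, against 29.3, 29.8 and 28.4 FPKM in siMSI1, entirely below (log2 fold change −0.24, limma adjusted p = 0.024). RPL7 was at 180, 196 and 184 FPKM in siC, against 199, 250.1 and 199.5 FPKM in siMSI1. The ratio of RPL7L1 to RPL7 was 19.04%, 18.4% and 18.2% in siC and 14.7%, 11.9% and 14.2% in siMSI1, a difference of −0.45 on the log2 scale. These ratios use the lengths in the table, and per length of the canonical mRNA RPL7L1 was at 13.39% to 14.02% of RPL7 in siC and 8.76% to 10.81% in siMSI1.

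RPL26L1, a near-copy of RPL26, was at 30.9, 28.9 and 30.2 FPKM in siC and 35.3, 37.5 and 37.2 FPKM in siMSI1. RPL26 was at 21.2, 21.7 and 20.6 FPKM in siC, against 18.6, 24.5 and 20.5 FPKM in siMSI1. Which of the pair is the higher depends on the length used, since the table gives RPL26 2472 bases for an mRNA of 528 and RPL26L1 1164 bases for an mRNA of 722. Per length of the canonical mRNA RPL26L1 was the lower, at 50.2%, 45.9% and 50.5% of RPL26 in siC and 65.5%, 52.7% and 62.3% in siMSI1. The log2 ratio of their FPKM was 0.50 ± 0.078 in siC and 0.80 ± 0.164 in siMSI1 (SD, n = 3), a difference of 0.30. The ratios of both pairs did not overlap between the groups. The exact permutation p was 0.1 for each, the smallest the design allows, and 0.2 after adjustment over the 4 pairs.

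RPL22L1 was at 12.5 ± 1.13 FPKM in siC and 14.5 ± 0.545 FPKM in siMSI1 (SD, n = 3), between 19.8% and 23.2% of RPL22 in each library (10.16% to 11.96% per length of the canonical mRNA). Its log2 ratio to RPL22 differed by −0.07 (exact permutation p = 0.5, adjusted 0.5), within the spread of the libraries. RPS27L, a target of p53, was at 1.16% to 1.43% of RPS27 (0.647% to 0.797% per length of the canonical mRNA), and its log2 ratio differed by −0.14 (exact permutation p = 0.2, adjusted 0.27). The starts are shown to compare partners, for the 3 pairs in which both had a window, with capitals as above:
RPL26: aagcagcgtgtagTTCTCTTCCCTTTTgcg
RPL26L1: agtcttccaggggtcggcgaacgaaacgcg
RPL22: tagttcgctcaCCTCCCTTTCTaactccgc
RPL22L1: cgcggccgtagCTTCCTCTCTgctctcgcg
RPS27: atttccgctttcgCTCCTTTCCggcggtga
RPS27L: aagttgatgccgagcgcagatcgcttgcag

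In that order they lie at chr17:8383179-8383208 (minus strand), chr5:172958714-172958743 (plus strand), chr1:6199581-6199610 (minus strand), chr3:170870181-170870210 (minus strand), chr1:153990747-153990776 (plus strand) and chr15:63157463-63157492 (minus strand). RPL26, RPL22 and RPS27 had runs of 14, 11 and 9 pyrimidines. RPL22L1 had a run of 10, and RPL26L1 and RPS27L started with a G and had none.

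Ribosomal protein genes have left many processed pseudogenes in the genome, and reads can be split between a gene and its copies. The table held 965 rows named as pseudogenes of 75 members, of which 684 were at 0 reads in all libraries. Their reads came to 3.03%, 2.98% and 3.49% of the members' reads in siC and 3.33%, 3.28% and 3.96% in siMSI1. Of the 77 rows that were tested, 65 were above 0 with a median log2 fold change of 0.31, 4 were called higher and 0 lower. Among all tested genes 50.0% were above 0, 5.15% were called higher and 5.83% lower, so that these calls are near the background. Of the members, 24 had no window of 100 bases of their canonical mRNA elsewhere in hg38. The 21 of these that were tested had a median log2 fold change of 0.21 and 1 call (RPL30), and the 30 members with at least 25% of windows elsewhere had a median of 0.16 and 1 call.

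Adding the pseudogene reads to the parent changed the values of some genes and not of others. RPL41 was at 1146, 1214 and 1001 FPKM in siC, against 1106, 1346 and 818 FPKM in siMSI1, and at 1238, 1285 and 1223 FPKM and 1188, 1436 and 1218 FPKM after the addition. In siC replicate 3 and siMSI1 replicate 3, where RPL41 was lowest, the row of its pseudogene RPL41P1 stood at 2976 and 5377 FPKM, as against 952 to 1240 FPKM in the other libraries. For RPS28, the pseudogene rows held 45.7% of the combined reads, and the log2 fold change went from 0.50 to 0.40 (limma adjusted p = 0.0091). RPL21, every window of which recurs elsewhere, went from 0.41 to 0.32, and RPS10 from −0.44 to 0.23 with 87.1% of its combined reads on pseudogenes. RPL13A, RPL30 and RPL10 stayed at 0.53, 0.46 and 0.45.

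**Figure D4:**
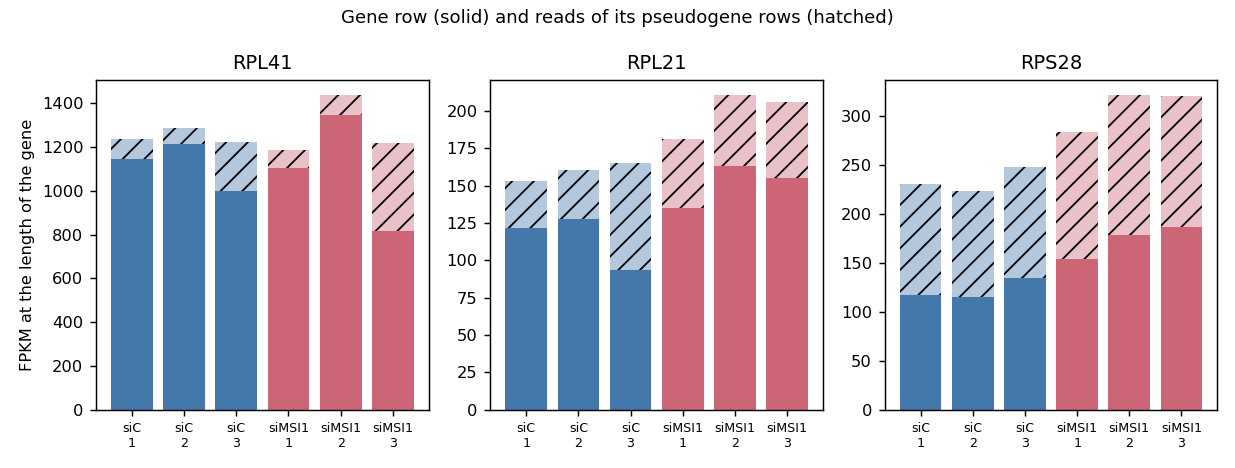
Solid bars give the FPKM of RPL41, RPL21 and RPS28 in each library and hatched bars the reads of their pseudogene rows at the length of the gene, each panel with its own axis from 0. In RPL41 the hatched part is tallest in siC replicate 3 and siMSI1 replicate 3, where the solid part is lowest, and in RPS28 it holds 45.7% of the reads.

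Other ribosomal proteins have symbols of another pattern. FAU is a fusion of a ubiquitin-like protein with a ribosomal protein, RACK1 is a signaling scaffold on the small subunit and RPL36AL is a near-copy of RPL36A. Their log2 fold changes were 0.26, 0.02 and 0.16, and none of these 3 was called (lowest limma adjusted p = 0.077, for FAU). RPL36AL was at 122 ± 3.38 FPKM in siC (SD, n = 3), where RPL36A was at 1.80 ± 0.128 FPKM.

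Other mRNAs known for a TOP motif, mostly elongation and initiation factors, had a median log2 fold change of 0.21 over 18 tested genes. Of these, 4 were called higher (22.2%) and 1 lower, where 5.15% of all tested genes were called higher and 5.83% lower. EEF1B2, the exchange factor of elongation factor 1, rose from 163, 170 and 178 FPKM to 251, 277 and 281 FPKM (log2 fold change 0.66, limma adjusted p = 0.00086) and was called in all 18 alternatives. TPT1 (0.39) and the initiation factors EIF3L (0.38) and EIF4B (0.31) also rose, and the initiation factor subunit EIF2S3 fell by 0.36 on the log2 scale. Of their 13 promoters, 84.6% carried a C near the start followed by pyrimidines.

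Factors that assemble ribosomes had a median of 0.20 over 36 genes, with 4 higher (11.1%) and 0 lower (29 above 0). Among all tested genes 50.0% were above 0, 5.15% were called higher and 5.83% lower. The 4 higher were FBL, the methyltransferase of box C/D particles (0.54), the GTPase GNL3L (0.52), NOP10 of the box H/ACA particles (0.46) and RRS1 (0.40). FBL was at 110, 103 and 117 FPKM in siC, against 144, 168 and 169 FPKM in siMSI1. The 7 genes listed as chaperones of ribosomal proteins had 0 calls and a median of 0.11. NACA is counted both here and among the other TOP mRNAs. RNA polymerase I and its factors, which transcribe ribosomal RNA, had a median of 0.12 over 13 tested genes. The subunits POLR1B (0.46) and POLR1C (0.37) were called higher, which is 15.4% of these genes, and 0 were called lower. All siMSI1 values lay above all siC values in 4 of the 13 and below in 3 (background 21.4% and 21.5%). The 3 were TAF1C (−0.38, limma adjusted p = 0.075), RRN3 (−0.36, 0.057) and POLR1D (−0.15, 0.24).

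The regulators of ribosomal protein synthesis had a median of 0.03 over 15 genes, and 1 of them was called (6.67%, against 11.0% of all tested genes). MYCN, which drives ribosome synthesis in neural progenitors and tumors, was at 76.0, 78.1 and 80.6 FPKM in siC, against 123, 119 and 118 FPKM in siMSI1. It rose by 0.62 on the log2 scale (standard error 0.059, limma adjusted p = 0.00055) and was called in all 18 alternatives. MYC was low, at 0.656 ± 0.087 FPKM in siC and 0.457 ± 0.221 FPKM in siMSI1 (SD, n = 3), and its adjusted p was 0.38. LARP1 was at 22.4, 22.6 and 21.5 FPKM in siC, against 26.8, 27.1 and 26.4 FPKM in siMSI1 (log2 fold change 0.27, limma adjusted p = 0.013). MTOR was at 5.05 ± 0.192 and 6.17 ± 0.213 FPKM (SD, n = 3), with a log2 fold change of 0.29 (limma adjusted p = 0.032). Neither passed the threshold.

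Mitochondrial ribosomal proteins, which are encoded in the nucleus but belong to another ribosome, had a median log2 fold change of 0.17 over 78 tested genes. Of these, 61 were above 0 (78.2%), 7 were called higher (8.97%) and 1 lower. Among all tested genes 50.0% were above 0, 5.15% were called higher and 5.83% lower. MRPL53 (0.81), MRPS14 (0.80) and MRPL30 (0.63) rose most, and MRPL10 fell by 0.56 on the log2 scale. MRPS14 went from 13.6, 13.9 and 14.2 FPKM to 22.5, 26.3 and 24.3 FPKM. Of their 70 promoters, 21.4% carried a C near the start followed by pyrimidines, close to the 21.1% of all promoters. The letters CTTCCG on either strand occurred in 52.9% of these 70 promoters. They occurred in 46.7% of the promoters of assembly factors and 38.5% of those of other TOP mRNAs. The shares were 61.2% for the cytosolic members and 34.5% for tested coding genes.

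**Figure D5:**
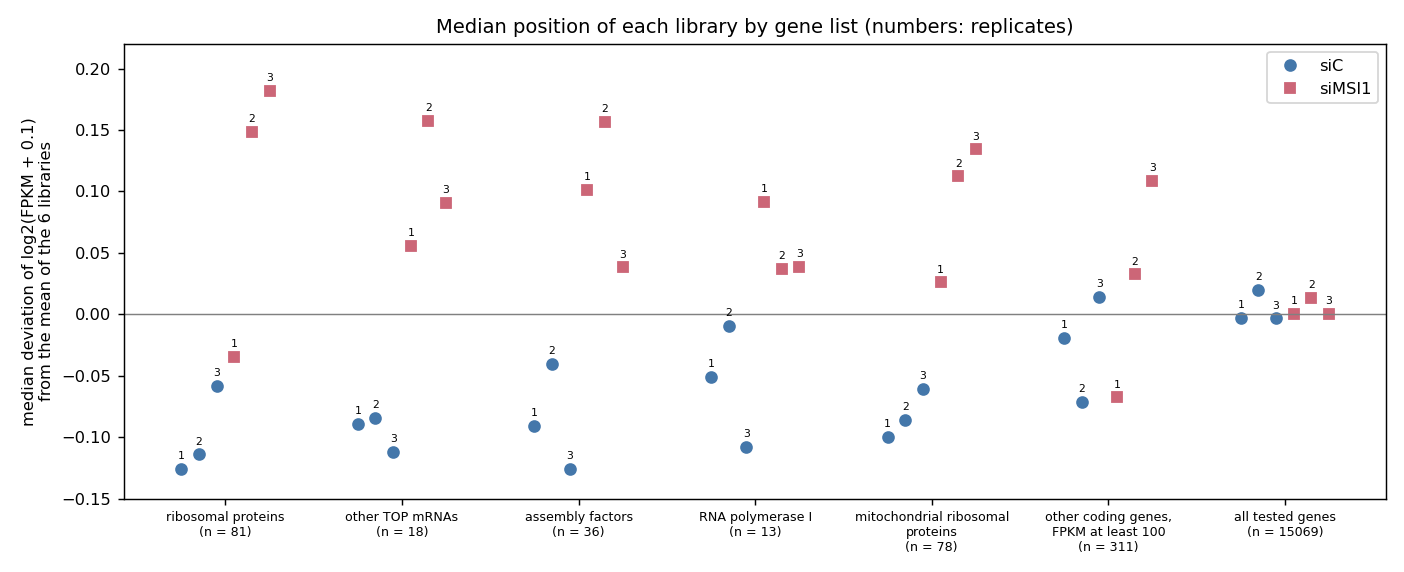
For each gene list, the points give the median deviation of log2(FPKM + 0.1) from the mean of the 6 libraries in each library, with circles for siC, squares for siMSI1 and the replicate number above each point. siMSI1 replicate 1 is at −0.03 for the ribosomal proteins and above 0 for other TOP mRNAs, assembly factors, RNA polymerase I and mitochondrial ribosomal proteins, and all tested genes stay near 0.

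For other TOP mRNAs, assembly factors, RNA polymerase I and mitochondrial ribosomal proteins, the medians of the 3 siMSI1 libraries lay above those of the 3 siC libraries. Those of other TOP mRNAs were −0.09, −0.08 and −0.11 in siC and 0.06, 0.16 and 0.09 in siMSI1. Those of assembly factors were −0.09, −0.04 and −0.13 in siC and 0.10, 0.16 and 0.04 in siMSI1, where the order of the siMSI1 libraries was not that of the ribosomal proteins. Other coding genes with at least 100 FPKM stood at −0.02, −0.07 and 0.01 in siC and at −0.07, 0.03 and 0.11 in siMSI1, with siMSI1 replicate 1 at the lower end and replicate 3 at the upper end, as in the ribosomal proteins.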

How the data were processed

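Polyadenylated RNA of KNS42 cells (siC, n = 3; siMSI1, n = 3) was sequenced from strand-specific libraries. Per the submitters' processing notes and the study's methods, the authors used cutadapt 1.14, HISAT2 2.1.0 (hg38), SAMtools 1.5, featureCounts 1.5.3 and edgeR 3.18.1. Whether counting used the strand, and how reads with several hits were treated, is not given in the sources used here. The authors deposited 1 table of FPKM per gene and library. It also holds the authors' own log2 fold changes, p-values and false discovery rates, which were not used.

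Reads were recovered from FPKM and gene length (100% whole within 0.01). Genes with a mean of at least 0.5 FPKM (15069) were fitted as log2(FPKM + 0.1) with limma 3.58.1 (R 4.3.3; lmFit, eBayes with trend and robust, no block), adjusted by Benjamini-Hochberg, with a threshold of 0.01. This scale understates the change of low genes. Single values per library were compared by exact permutation (SciPy 1.17.1, Python 3.11.15). The script was tested on simulated data, with 50 genes drawn from all tested genes at each fold difference. Of these, 0% were called at 1.25-fold, 6% at 1.5-fold and 34% at 2-fold, so that small differences are often missed. Positions and canonical mRNAs came from GENCODE release 44, and mRNA windows of 100 bases were searched in 455 sequences of hg38.

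The members and gene lists were chosen with earlier results of these data known. Genes named are MSI1, called members, the 5 highest and 5 lowest log2 fold changes, the 5 most and 3 least abundant members, the paralog pairs, members with set roles (RPL5, RPL11, RPS6, RPS19, RPLP0 to RPLP2, RPSA, RPS27A), FAU, RACK1, RPL36AL, and up to 3 called genes per list. Single values of some genes this rule takes are not reported here, and they stay in the counts and medians. RPL21, RPL29, EIF4B, EIF2S3, RRS1, MYC, MTOR, LARP1, MRPL10, RPL41P1, TAF1C, RRN3, POLR1D and NACA were named after their values were seen. Alternatives were other added values, filters, scalings, variance moderation, thresholds, voom, a replicate block and leaving out libraries.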

Additional observations from a re-analysis of the deposited data

How the results depend on the processing

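The median log2 fold change of the members kept its direction under each alternative run, from 0.13 (quantile normalization) to 0.26 (without siMSI1 replicate 1), and so did the knockdown of MSI1. The share of reads and the summed FPKM were recomputed only with each library left out in turn, and the share also over the reads on protein-coding genes, and both kept their direction there. The number of members past the threshold was less stable. Against 4 of 81 with all libraries, it was 12 (11 higher, 1 lower) with quantile normalization, 25 (22 higher, 3 lower) at an adjusted p of 0.05 and 19 (18 higher, 1 lower) in voom on recovered reads, whose library sizes were those scaled by the authors. It was 0 without a filter on low genes, where 1.18% of all genes were called higher and 1.47% lower, and 0 with plain variance moderation, where 2.39% and 3.23% were. At an unadjusted p of 0.05 in limma, 43 members were higher and 3 lower in the first (10.60% and 11.23% of all genes) and 31 and 3 in the second (18.18% and 19.12%). Over the fits that left out 1 library the number ran from 0 to 9. Of the alternatives chosen after seeing the data, adding pseudogene reads to the parent gave 5 (5 higher, 0 lower, where 5.22% and 5.92% of all genes were), members at 20 FPKM or more 4, and members without a copy of any mRNA window 1, since only 21 were tested. Across settings, the cause of the other shifts was not tested. Low counts limit RPS10, RPL36A and RPS18.

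The labels do not say whether the replicate numbers pair the libraries. Over all tested genes, deviations of same-numbered libraries from their group means correlated at −0.07, 0.08 and 0.08. Over the members they correlated at −0.84, −0.85 and −0.32. With 3 libraries per group the deviations are tied to each other, so these values cannot settle pairing. A replicate block gave 10 members past the threshold (10 higher, 0 lower, where 7.15% and 7.78% of all genes were). In voom with a replicate block the number was 49 (46 higher, 3 lower, where 16.6% and 17.1% of all genes were). The lowest adjusted p of a member was 1.97e-12 there, against 9.4e-05 in voom without the block. A block leaves less residual information per gene, so its p-values rest more on the variance moderation, which limits these counts.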
